A study of Mus musculus with 8 samples.

Results

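The genes described here were Myc and 38 genes whose proteins make ribosomes, 39 of the 55487 genes listed for a cell culture experiment with the bile acid ursodeoxycholic acid (UDCA). They were chosen by symbol, as MYC and the best known factors of nucleolar ribosome assembly, and not by a measured threshold. The choice was made with earlier results of these data known. J774A.1 is a mouse macrophage cell line. RNA was sequenced from 4 libraries of cells given LPS (1 μg/mL), a molecule of the outer membrane of bacteria to which macrophages respond, and from 4 libraries of cells given LPS (1 μg/mL) with UDCA (1 mM), all taken after 24 h. Both groups thus carried LPS, and no library without LPS was analysed here. The comparison asked which transcripts differed when UDCA was added to LPS-treated macrophages. The labels number the libraries of each group but do not say that they came from separate cultures, so p-values measure the spread between these libraries, which may be technical.

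Ribosomes are assembled in the nucleolus. RNA polymerase I transcribes the large precursor of the ribosomal RNAs, small nucleolar RNA-protein complexes (snoRNPs) modify it, and many assembly factors fold and cut it into the 40S and 60S subunits. MYC is a transcription factor that binds DNA with its partner MAX, most tightly at the sequence CACGTG, and it is known for driving the genes of ribosome assembly, nucleotide synthesis and cell growth.

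Values were deposited as TPM (reads divided by gene length and scaled to a fixed total in each library). Read numbers cannot be recovered from TPM, so sequencing depth is unknown and errors are the SD or SE over libraries. The listed values of a library came to 973190 to 977485 TPM under LPS and 958918 to 962737 TPM under LPS + UDCA. All 39 genes passed the filter of a mean of at least 1 TPM, with means from 11.4 to 1320 TPM. Changes are given as log2 fold changes, LPS + UDCA minus LPS, on log2(TPM + 1). They were tested with limma with Benjamini-Hochberg adjustment over the 11796 genes that passed the filter, and a gene was called changed at an adjusted p (FDR) under 0.05.

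The cell line label was checked with 10 macrophage markers. Of these, 9 were expressed, including Spi1, Cd68 and Csf1r, and Mertk was listed at 0 in every library. The summed TPM of the 10 markers was 4240 to 4472 in the LPS libraries and 2081 to 2338 in the LPS + UDCA libraries. Of the markers, 5 were lower and 4 higher, against 32.3% and 40.2% of all genes tested. Among 18 markers of lymphocytes, granulocytes, epithelium, fibroblasts and endothelium, only S100a8 reached a mean of 1 TPM, and the sum of the 18 was 18.4 to 22.2 TPM with LPS and 2.56 to 9.4 TPM with LPS + UDCA. Cd3e, Ncr1, Ly6g and Epcam, defining markers of T cells, NK cells, neutrophils and epithelium, had a mean of 0 TPM in both groups.

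Because CACGTG is the motif tied to MYC, the promoters that hold it are shown first. RefSeq windows (GRCm38.p6, 250 bases before to 50 bases after the transcription start) were at hand for 33 of the 39 genes, and CACGTG, which reads the same on both strands, was found in 9 of them (27.3%). The share was 12.3% of the 8791 tested genes with a window and 8.1% of all 27025 genes with a window. Among 88 other ribosome biogenesis factors with a window it was 19.3%. In 3 genes the motif lay before the start, and their 250 upstream bases are printed 5′ to 3′ on the gene's strand, with CACGTG in capitals. They are Rrn3 at chr16:13780449-13780698 on the plus strand with copies beginning 215 and 48 bases before the start, Nop2 at chr6:125131633-125131882 on the plus strand with a copy 60 bases before, and Utp18 at chr11:93885767-93886016 on the minus strand with a copy 20 bases before.
Rrn3: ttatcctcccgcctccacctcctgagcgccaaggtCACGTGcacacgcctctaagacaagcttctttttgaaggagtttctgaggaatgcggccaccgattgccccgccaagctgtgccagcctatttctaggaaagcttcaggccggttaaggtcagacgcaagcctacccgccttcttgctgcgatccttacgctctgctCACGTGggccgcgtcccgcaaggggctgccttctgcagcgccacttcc
Nop2: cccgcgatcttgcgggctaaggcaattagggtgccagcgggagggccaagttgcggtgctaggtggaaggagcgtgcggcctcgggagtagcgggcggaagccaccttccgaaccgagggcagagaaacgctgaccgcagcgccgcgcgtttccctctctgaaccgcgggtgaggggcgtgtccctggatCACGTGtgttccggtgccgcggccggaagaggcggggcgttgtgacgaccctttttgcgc
Utp18: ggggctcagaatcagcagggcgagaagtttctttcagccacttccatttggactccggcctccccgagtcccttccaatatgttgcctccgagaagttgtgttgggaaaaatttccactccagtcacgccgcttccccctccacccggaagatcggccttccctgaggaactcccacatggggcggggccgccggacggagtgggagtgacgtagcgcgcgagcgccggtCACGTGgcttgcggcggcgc

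In the other 6 genes the motif lay just after the start. For 3 of them the 26 bases around it are shown, again on the gene's strand and with the motif in capitals, because Ltv1 and Wdr43 were higher and Pes1 lower with UDCA. They lie at chr10:13193094-13193119 on the minus strand for Ltv1, at chr17:71616222-71616247 on the plus strand for Wdr43 and at chr11:3963967-3963992 on the plus strand for Pes1.
Ltv1: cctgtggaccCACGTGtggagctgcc
Wdr43: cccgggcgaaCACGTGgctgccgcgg
Pes1: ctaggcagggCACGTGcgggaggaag

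The motif was also in the windows of Utp20, Tsr1 and Mybbp1a. Of the 9 genes with the motif in the window, 4 were higher with UDCA (Utp18, Ltv1, Wdr43 and Utp20), 2 were lower (Nop2 and Pes1) and 3 were not called (Rrn3, Tsr1 and Mybbp1a). Over all genes tested, 40.2% were higher and 32.3% lower by the same rule, and the calls of Utp18, Wdr43 and Utp20 were lost when the median for genes of like GC content was taken off. The motif is a match of letters in a fixed window and shows no binding. Myc, Bop1, Fbl, Npm1, Rrs1 and Rrp12 had no window.

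With UDCA, Myc and all 8 genes placed here in the 60S role were lower. Npm1 and Ncl, the most abundant transcripts of the 39, were higher. The 8 of 8 rests on how the genes were grouped into roles. Npm1, Ncl and Gnl3 (0.55, adjusted p = 0.00032 by limma), all higher, were placed among nucleolar proteins and regulators instead. Further 60S factors outside the 39 went both ways. Of the 39 genes, 21 were lower and 10 higher with UDCA at an FDR under 0.05, and 8 were not called. The shares over all genes tested were 32.3% lower and 40.2% higher. The median log2 fold change was -0.17, against 0.082 over all genes tested. At an FDR under 0.05 and at least a 2-fold change, 2 of the 39 were lower (Myc and Nolc1) and 0 higher, against 8.44% and 8.71% of all genes. Polr1b and Bop1, at -0.99 each, lay just short of that fold and passed it when LPS + UDCA replicate 2 or LPS replicate 3 was left out, which made 4 lower. All LPS + UDCA libraries lay below all LPS libraries in 21 genes and above them in 9, against 29.9% and 37.0% of all genes, and the groups overlapped in the remaining 9. The genes are mapped in the plot of each library's difference from the LPS mean.

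**Figure D1:**
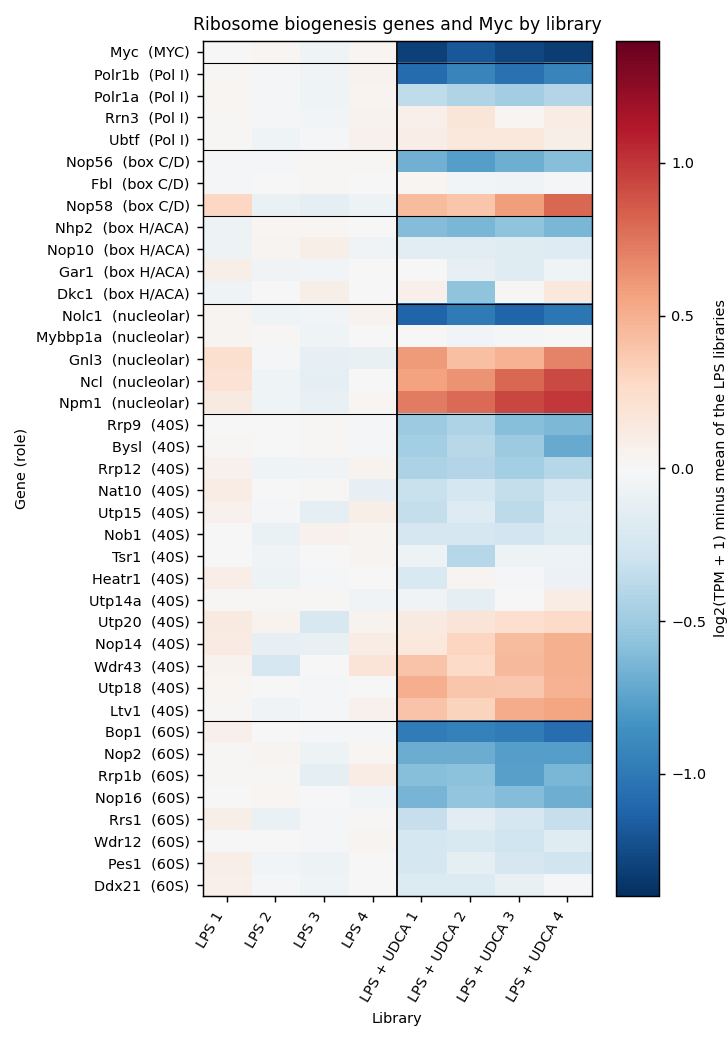
Each row is a gene, named with its role, each column is a library, and the colour is log2(TPM + 1) minus the mean of the 4 LPS libraries, on a scale with 0 in white. The 4 LPS + UDCA columns are blue for Myc (log2 fold change -1.27), Nolc1 (-1.06) and the 60S factors other than Ddx21. They are red for Npm1 (0.86) and Ncl (0.73). For Ddx21 (-0.13) the groups overlap, with 107.62 TPM in LPS + UDCA replicate 4 against an LPS mean of 109.6 TPM.

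Because of the few abundant genes, the sum of the 39 genes moved the other way from their median. Their TPM summed to 3986 to 4335 in the LPS libraries and to 4453 to 4975 in the LPS + UDCA libraries. Without Npm1 and Ncl the sum was 2757 to 2859 TPM with LPS and 2296 to 2370 TPM with LPS + UDCA, with no overlap between groups in either case. The TPM scale is relative, and in RNA from whole cultures fewer cells of a kind and less RNA per cell cannot be told apart.

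Myc (chr15:61985391-61990374, plus strand, GRCm38) had 69.76, 70.82, 66.46 and 70.60 TPM in the LPS libraries and 27.52, 29.95, 28.02 and 27.00 TPM in the LPS + UDCA libraries. Every LPS library was above every LPS + UDCA library, and the spread within either group was small beside the gap. The means were 69.41 ± 2.02 and 28.12 ± 1.29 TPM (SD, n = 4), a ratio of 0.405. The log2 fold change was -1.27 (SE 0.045), with an adjusted p of 2.9e-08 by limma. Permuting the labels over all 70 arrangements (exact permutation test) gave a 2-sided p of 0.029, the smallest that it allows.

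MYC works within a network of proteins that share MAX or MLX as partners. Of 13 genes encoding MYCN, MAX, the MXD proteins and other proteins of the MAX and MLX network, 11 were tested. Of these 6 were lower and 3 higher, against 32.3% and 40.2% of all genes tested, and their median log2 fold change was -0.23. Mycn, a close relative of Myc that binds the same motif, had 110.66, 103.64, 100.66 and 101.17 TPM under LPS and 13.01, 14.22, 12.96 and 14.10 TPM under LPS + UDCA. Its libraries too did not overlap, and its log2 fold change, the lowest of the network on log2(TPM + 1), was -2.85 (SE 0.051, adjusted p = 7.4e-10 by limma). The TPM of Mycn was thus 1.43 to 1.59 times that of Myc in the LPS libraries and 0.463 to 0.522 times that of Myc in the LPS + UDCA libraries. Mxd3, which encodes a partner of MAX that opposes MYC, was the other network gene past a 2-fold change, at 2.43 ± 0.369 against 0.1425 ± 0.171 TPM (SD, n = 4), and it is named because of this value. Its ratio of mean TPM, 0.0586, was lower than that of Mycn, 0.13. Max, the shared partner, was at 81.34 ± 3.95 TPM under LPS and 56.03 ± 9.14 TPM under LPS + UDCA (SD, n = 4), a log2 fold change of -0.54 (adjusted p = 0.00082 by limma). The highest was Mga, another partner of MAX, at 0.52 (SE 0.15, adjusted p = 0.0098 by limma). The Mga call was lost when the median for genes of like GC content was taken off (0.13, adjusted p = 0.54 by limma).

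Of the 4 genes of RNA polymerase I transcription, both subunits of the enzyme were lower. Of the factors that bring it to the ribosomal DNA promoter, Ubtf was slightly higher and Rrn3 was not called. Polr1b (chr2:129100995-129126594), the second largest subunit, had 15.61, 15.28, 14.89 and 16.01 TPM under LPS and 6.80, 7.68, 6.98 and 7.66 TPM under LPS + UDCA, without overlap. Its log2 fold change was -0.99 (SE 0.061, adjusted p = 7.6e-07 by limma), just short of 2-fold on the log2(TPM + 1) scale, although the ratio of mean TPM was 0.471. Polr1a, the largest subunit, was at 26.97 ± 0.918 and 19.93 ± 0.789 TPM (SD, n = 4), a log2 fold change of -0.42 (adjusted p = 4.7e-05 by limma). The Polr1a to Polr1b ratio was 1.73 to 1.77 with LPS and 2.58 to 3.07 with LPS + UDCA, with no overlap.

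Ubtf encodes the upstream binding factor, which coats active ribosomal DNA. It had 31.90, 30.10, 31.05 and 32.95 TPM under LPS and 33.62, 35.07, 34.85 and 33.32 TPM under LPS + UDCA. The difference was small, 0.12 on the log2 scale (SE 0.045, adjusted p = 0.04 by limma), and it kept its call in 6 of 17 other settings. Leaving out any library other than replicate 4 of either group ended the call, with adjusted p from 0.052 to 0.11, as did rescaling to a common median (0.04, adjusted p = 0.43). Rrn3, the factor that links polymerase I to its promoter, was not called, at 30.62 ± 0.881 and 32.70 ± 1.45 TPM (SD, n = 4), and the 95% interval of its log2 fold change was -0.01 to 0.20.

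**Figure D2:**
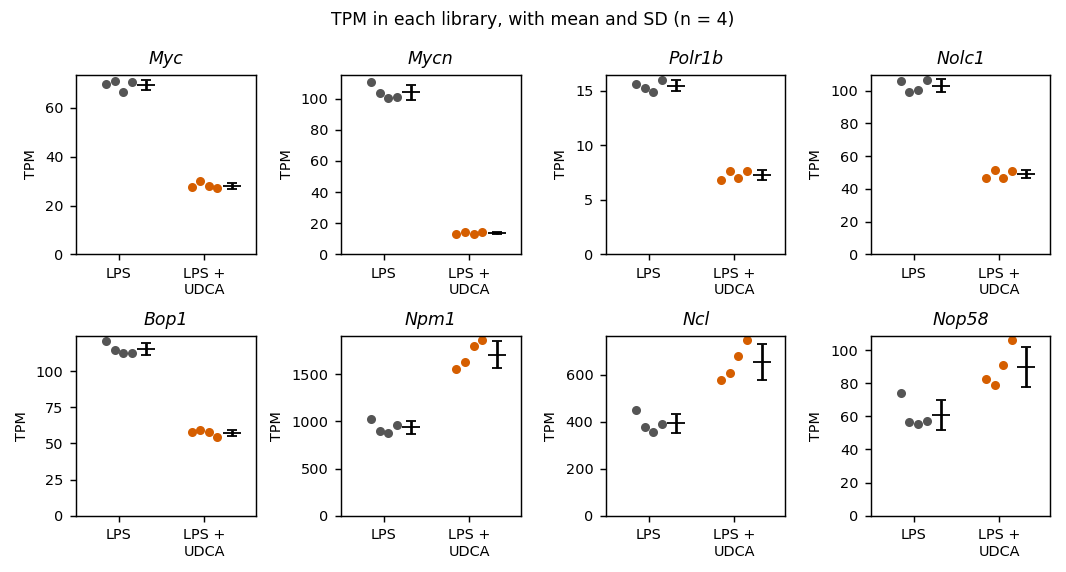
TPM (linear axes from 0) of 8 genes, with a point for each of the 4 LPS (grey) and 4 LPS + UDCA (orange) libraries and a bar for the mean and SD. Myc, Mycn, Polr1b, Nolc1 and Bop1 lie lower in every LPS + UDCA library, and Npm1, Ncl and Nop58 lie higher in every one.

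The snoRNPs come in a box C/D form, which methylates ribosomal RNA, and a box H/ACA form, which turns uridine into pseudouridine. In the box C/D form the scaffold pair moved apart. Nop56 (chr2:130274430-130279313) had 176.12, 175.82, 179.80 and 180.86 TPM under LPS and 111.29, 103.85, 110.13 and 117.08 TPM under LPS + UDCA, with a log2 fold change of -0.68 (SE 0.04, adjusted p = 5.4e-07 by limma). Nop58 (chr1:59684971-59719044) had 74.16, 56.55, 55.12 and 57.42 TPM under LPS and 82.42, 79.04, 91.35 and 105.97 TPM under LPS + UDCA, with a log2 fold change of 0.55 (SE 0.11, adjusted p = 0.0018 by limma). Neither gene had overlapping groups, but the first LPS library was well above the other LPS libraries for Nop58, and the Nop58 call was lost when the median for genes of like GC content was taken off (0.07, adjusted p = 0.41 by limma). The Nop56 to Nop58 ratio was 2.37 to 3.26 with LPS and 1.10 to 1.35 with LPS + UDCA. Fbl, the methyltransferase fibrillarin, was at 276.2 ± 2.67 and 272.7 ± 7.18 TPM (SD, n = 4), with a 95% interval of -0.08 to 0.05 for its log2 fold change, and its direction turned with the scaling, from 0.07 after quantile normalization (adjusted p = 0.049 by limma) to -0.10 after median-of-ratios scaling (adjusted p = 0.049).

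In the box H/ACA form 2 of 4 genes were lower, against 32.3% of all genes tested. Nhp2, an RNA-binding core protein, had 275.98, 295.44, 293.80 and 291.04 TPM under LPS and 188.80, 185.43, 195.55 and 185.00 TPM under LPS + UDCA, without overlap. Its log2 fold change was -0.61 (SE 0.034, adjusted p = 4.1e-07 by limma). Nop10, the smallest core protein, changed less, at 58.25 ± 2.78 and 51.79 ± 0.445 TPM (SD, n = 4) and a log2 fold change of -0.17 (adjusted p = 0.0062 by limma), and the Nhp2 to Nop10 ratio fell from 4.78 to 5.16 with LPS to 3.55 to 3.80 with LPS + UDCA.
Dkc1, the pseudouridine synthase, had 19.47, 20.28, 21.61 and 20.37 TPM under LPS and 21.53, 13.52, 20.64 and 22.78 TPM under LPS + UDCA. The second LPS + UDCA library was far below the others, and the difference was not called, at -0.08 (SE 0.14, adjusted p = 0.62 by limma). Without that library it was 0.08 (adjusted p = 0.25 by limma), and with the median for genes of like GC content taken off it was called lower, at -0.43 (adjusted p = 0.023 by limma). Gar1 was not called either, with a 95% interval of -0.19 to 0.02.

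Among 5 abundant nucleolar proteins and regulators, 3 were higher, 1 was lower and Mybbp1a was not called (95% interval -0.09 to 0.05). The shares over all genes tested were 40.2% higher and 32.3% lower. Npm1 (chr11:33152287-33163206, minus strand) encodes nucleophosmin, a histone and ribosome chaperone that forms the outer layer of the nucleolus. It had 1026.54, 898.57, 873.46 and 958.28 TPM under LPS and 1552.55, 1627.75, 1795.97 and 1858.50 TPM under LPS + UDCA. All LPS + UDCA libraries were higher, with means of 939.2 ± 68.2 and 1709 ± 143 TPM (SD, n = 4) and a log2 fold change of 0.86 (SE 0.068, adjusted p = 3.6e-06 by limma). Ncl, nucleolin, rose from 393.2 ± 40.2 to 653.0 ± 76.4 TPM (SD, n = 4), a log2 fold change of 0.73 (adjusted p = 8.2e-05 by limma). Gnl3, the GTPase nucleostemin, rose from 42.40 ± 4.87 to 62.41 ± 5.25 TPM (SD, n = 4), a log2 fold change of 0.55 (adjusted p = 0.00032 by limma). In the opposite direction, Nolc1 (chr19:46075863-46085530), a chaperone of snoRNPs, had 105.78, 99.00, 100.42 and 106.73 TPM under LPS and 46.85, 51.25, 46.89 and 50.63 TPM under LPS + UDCA. Its libraries did not overlap, and the log2 fold change was -1.06 (SE 0.047, adjusted p = 9.8e-08 by limma).

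Of the 14 factors of the small subunit 6 were lower, 5 higher and 3 not called, against 32.3% lower and 40.2% higher over all genes tested. The lowest was Rrp9, a protein of the U3 snoRNP, which guides the early cuts in the precursor. It had 111.69, 110.31, 112.60 and 109.05 TPM under LPS and 77.64, 81.87, 73.01 and 71.33 TPM under LPS + UDCA, without overlap. Its log2 fold change was -0.54 (SE 0.047, adjusted p = 6.4e-06 by limma). The highest was Ltv1, which leaves the 40S particle late in its maturation. It had 20.52, 19.53, 19.73 and 21.06 TPM under LPS and 27.06, 25.29, 29.47 and 30.08 TPM under LPS + UDCA, again without overlap, and its log2 fold change was 0.45 (SE 0.063, adjusted p = 0.00016 by limma).

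Within the early processome, a large particle built on the precursor, the members moved both ways. Utp18 (0.44), Wdr43 (0.41), Nop14 (0.35) and Utp20 (0.20) were higher, while Utp15 (-0.26) was lower. Utp14a (-0.02, 95% interval -0.14 to 0.10) and Heatr1 (-0.07, 95% interval -0.21 to 0.07) were not called. The Utp20 call had an adjusted p of 0.042 by limma, with overlapping groups, and was lost when any library other than replicate 1 of either group was left out, with adjusted p from 0.057 to 0.099.
Among the later factors, Bysl (-0.52), the export factor Rrp12 (-0.43) and Nob1 (-0.24), the nuclease that makes the mature end of 18S RNA, were lower. So was Nat10 (-0.28), which acetylates 18S RNA. Tsr1 was at 29.27 ± 0.731 and 26.37 ± 2.93 TPM (SD, n = 4) and was not called (adjusted p = 0.11 by limma), although its groups did not overlap.

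All 8 genes placed in the role of large subunit assembly were lower with UDCA, against 32.3% of all genes tested. Their median log2 fold change was -0.44, with a range of -0.99 to -0.13. Bop1 (chr15:76452989-76477277, minus strand) had 121.12, 114.38, 112.64 and 112.62 TPM under LPS and 57.89, 59.24, 57.74 and 54.55 TPM under LPS + UDCA. Its groups did not overlap, and the log2 fold change was -0.99 (SE 0.041, adjusted p = 6.7e-08 by limma). Bop1 forms a complex with Pes1 and Wdr12 that is needed to process the 28S precursor, and these partners fell by 0.22 and 0.23 on the log2 scale (adjusted p = 0.002 and 0.0005 by limma). With the median for genes of like GC content taken off, Pes1 was at -0.28 and Wdr12 at -0.71, next to Bop1 at -0.82. The GC content used for Wdr12 was that of its longest coding transcript and was the lowest of the 39 genes (40.4%). The Bop1 to Pes1 ratio was 1.14 to 1.19 in the LPS libraries and 0.662 to 0.692 in the LPS + UDCA libraries, and the Bop1 to Wdr12 ratio was 1.70 to 1.87 and 0.948 to 1.08. Nop2 (-0.73), a methyltransferase of 28S RNA, Rrp1b (-0.64) and Nop16 (-0.62) lay between, and Rrs1, which helps place the 5S RNA, was at -0.26. The smallest change was that of Ddx21, an RNA helicase, with 114.90, 108.44, 104.70 and 110.32 TPM under LPS and 95.98, 95.72, 101.94 and 107.62 TPM under LPS + UDCA. Its groups overlapped, the log2 fold change was -0.13 (SE 0.049, adjusted p = 0.039 by limma), and the call was lost when any library other than LPS replicate 3 or LPS + UDCA replicate 4 was left out, with adjusted p from 0.056 to 0.098.

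**Figure D3:**
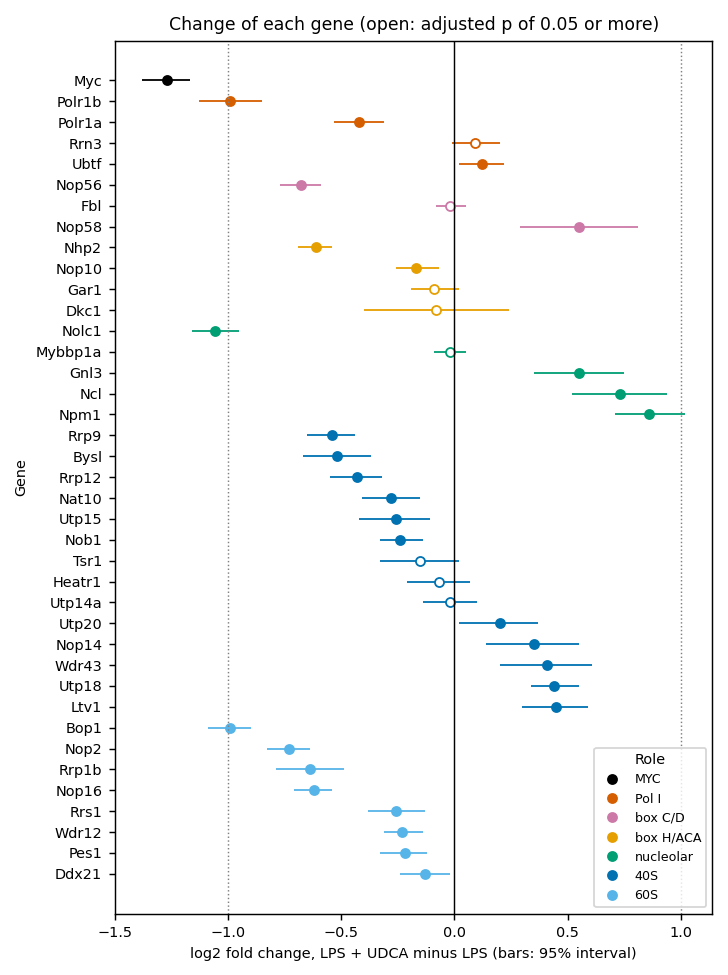
Log2 fold change (LPS + UDCA minus LPS, on log2(TPM + 1)) of each of the 39 genes with its 95% interval, coloured by role, with open points for genes not called at an FDR under 0.05 and dotted lines at a 2-fold change. The 8 60S factors all lie left of 0, from -0.99 for Bop1 to -0.13 for Ddx21, while the 40S factors lie on both sides.

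The change of these genes went with the base composition of their transcripts, as it did over all genes. Across the 39 genes, which are not independent and share the same libraries, the log2 fold change and the GC content of the longest coding transcript had a Pearson's r of -0.64 and a Spearman's rho of -0.61. Across the 11765 tested genes with a GC value, r was -0.22 and rho -0.28. The 10 genes that rose had a median GC content of 44.5% and the 21 that fell 52.5%. When the median deviation per bin of GC content was taken off each library, an alternative chosen after seeing the data, 25 of the 39 genes were lower and 7 higher, and their median was -0.27. By that rule 35.3% of all genes were lower and 34.8% higher. Nop58 (0.07, adjusted p = 0.41), Utp18 (0.05, adjusted p = 0.46), Wdr43 (0.14, adjusted p = 0.13) and Utp20 (0.06, adjusted p = 0.41) were then no longer called by limma. Npm1 (0.47), Ncl (0.34), Gnl3 (0.29), Ltv1 (0.29), Nop14 (0.22) and Ubtf (0.21) remained higher and Fbl (0.12, adjusted p = 0.02) became so by limma. Dkc1 (-0.43, adjusted p = 0.023), Tsr1 (-0.29, adjusted p = 0.01), Heatr1 (-0.22, adjusted p = 0.0048) and Utp14a (-0.16, adjusted p = 0.024) became lower by limma, while Myc (-1.23), Nolc1 (-1.05), Polr1b (-0.98) and Bop1 (-0.82) remained so. These GC values rest on the longest coding transcript, which need not be the one expressed here. It is long for some genes of low GC content, at 10012 bases for Wdr12, 9507 for Nop58 and 8202 for Ncl. The part of base composition in the changes was not tested.

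**Figure D4:**
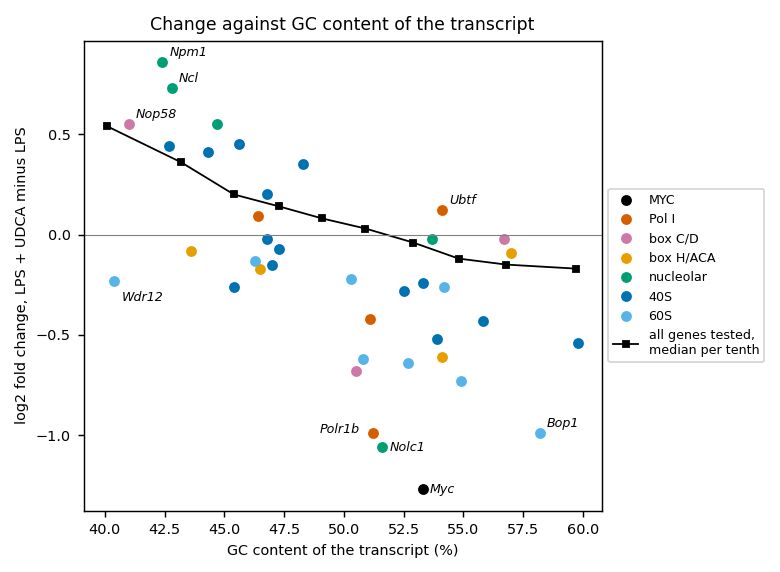
Log2 fold change (LPS + UDCA minus LPS) against the GC content of the longest coding transcript (percent), with a point for each of the 39 genes coloured by role, and black squares for the medians of 10 equal groups of all genes ordered by GC content. The squares fall from 0.54 in the group with the lowest GC content to -0.17 in the highest, and Myc, Nolc1, Polr1b and Bop1 lie well below them.

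Genes for small nucleolar RNAs lie inside 7 of the 39 genes in GENCODE M21, namely Nop56 with 5, Nop58 with 4, Ncl, Gnl3 and Wdr43 with 3 each, Tsr1 with 2 and Dkc1 with 1. Of these hosts 4 were higher, 1 was lower and 2 were not called, while of the 32 others 6 were higher, 20 were lower and 6 were not called. Over all genes tested, 40.2% were higher and 32.3% lower. With the median for genes of like GC content taken off, the hosts Nop58 and Wdr43 lost their calls and Dkc1 and Tsr1 were called lower. No test was made of the difference between hosts and others. Transcripts of 6 members share at least 10% of their 31-base words with another gene. They are Fbl (75.15%), Npm1 (45.48%), Nop56 (38.22%), Pes1 (33.37%), Rrs1 (15.81%) and Wdr12 (13.67%). Their reads could be split between copies and their values are uncertain, as are the ratios above that hold Nop56, Pes1 or Wdr12. An antisense gene overlaps 17 of the 39, and without a strand setting for the counting, which is not given in the sources used here, reads of such partners cannot be told apart.

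A wider set held 105 other ribosome biogenesis factors. Of these, 36 were lower, 38 higher and 31 not called, against 32.3% lower and 40.2% higher over all genes tested. Their median log2 fold change was 0.06, close to the 0.082 over all genes tested. It became -0.02 when the libraries were rescaled to a common median. With the median for genes of like GC content taken off, 42 of the 105 were lower and 30 higher, with a median of -0.08. By that rule 35.3% of all genes were lower and 34.8% higher. Cd3eap, a further subunit of RNA polymerase I, was the lowest, at 24.34 ± 0.738 and 6.643 ± 0.647 TPM (SD, n = 4) and a log2 fold change of -1.73 (adjusted p = 6.6e-08 by limma). Nmd3, an adaptor for export of the 60S subunit, was the highest, at 28.96 ± 2.03 and 61.25 ± 9.06 TPM (SD, n = 4) and 1.05 (adjusted p = 1.2e-05 by limma). The other factors past a 2-fold change, named for that reason, were Senp3 (-1.03) and Esf1 (1.01). With the median for genes of like GC content taken off, Nmd3 was at 0.46 and Esf1 at 0.43. Cd3eap was then at -1.58 and Senp3 at -0.94.

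Other genes known as MYC targets act outside the nucleolus, among them genes of metabolism and translation. Of 25 such genes 19 were lower and 3 higher, against 32.3% and 40.2% of all genes tested. Their median log2 fold change was -0.56, against 0.082 over all genes tested. By at least 2-fold, 6 were lower and 1 higher, against 8.44% and 8.71% of all genes tested. Odc1, ornithine decarboxylase of polyamine synthesis, had 4806.07, 4831.18, 4740.73 and 4721.89 TPM under LPS and 1044.71, 1061.65, 1035.53 and 996.86 TPM under LPS + UDCA, with a log2 fold change of -2.21 (SE 0.026, adjusted p = 6.9e-11 by limma). The highest was Hspd1, a mitochondrial chaperone, which rose from 231.9 ± 15.5 to 473.8 ± 47.8 TPM (SD, n = 4), a log2 fold change of 1.02 (adjusted p = 2e-06 by limma).

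Markers of dividing cells fell beside these genes. All 13 proliferation markers were lower, 12 of them by at least 2-fold, against 32.3% and 8.44% of all genes tested. Their median log2 fold change was -2.01, and their summed TPM was 1090 to 1140 with LPS and 292 to 304 with LPS + UDCA. The lowest was Plk1, a mitotic kinase, at 43.32 ± 1.64 and 1.185 ± 0.45 TPM (SD, n = 4), and the least changed was Mcm2, a subunit of the replicative helicase, at -0.62. The part of cell division in the changes of Myc and the assembly factors was not tested. Of 13 mitochondrially encoded messenger RNAs, 4 were lower, 2 higher and 7 not called, against 32.3% lower and 40.2% higher over all genes tested.

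**Figure D5:**
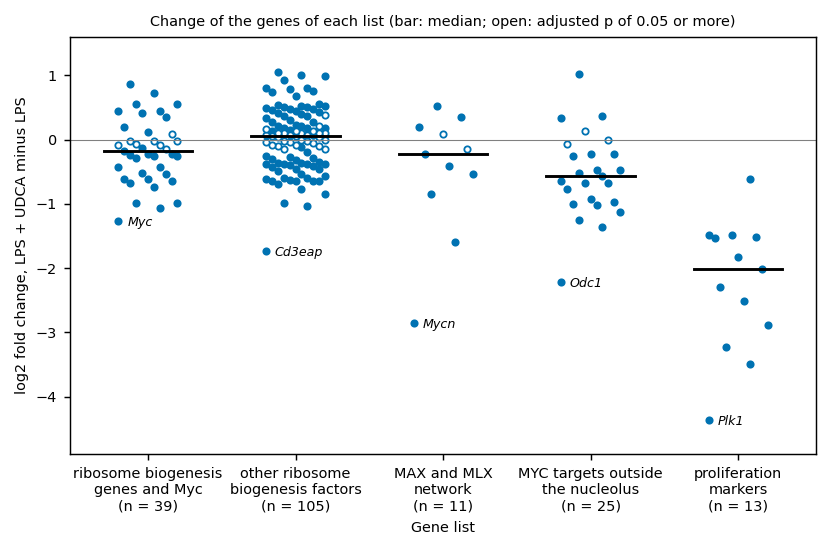
Log2 fold change (LPS + UDCA minus LPS) of the tested genes of 5 lists, with a point for each gene, open where it was not called at an FDR under 0.05, a black bar for the median and the name of the lowest gene. The medians are -0.17 for the 39 genes, 0.06 for the other ribosome biogenesis factors, -0.23 for the MAX and MLX network, -0.56 for the MYC targets and -2.01 for the proliferation markers.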

How the data were processed

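RNA of J774A.1 cells was sequenced in 4 LPS and 4 LPS + UDCA libraries made with an Illumina TruSeq RNA kit per the labels. The authors deposited TPM per gene with 2 decimals, a unit inferred from the values, which sum to a little under 1000000 per library. The submitters' processing notes name Bowtie 0.12.2 and mm10 (GRCm38), and the counting program is not given in the sources used here. Sequencing depth is not recoverable from TPM, and errors are those between libraries. Groups follow the labels' treatment, and doses follow the paper's methods, which describe UDCA with or without LPS.

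Genes whose mean over the 8 libraries was 1 TPM or more (11796) were tested on log2(TPM + 1) with limma 3.58.1 (lmFit, then eBayes with trend) in R 4.3.3, without a block for the replicate number, and p-values were adjusted by the Benjamini-Hochberg method. The fold threshold of 2 is that of the paper's methods. Fold changes understate those of genes with low TPM. On simulated data, 200 of 11796 genes were changed by more than 2-fold, with noise independent between genes. A call there needed both an FDR under 0.05 and at least a 2-fold change. By that rule 98% of the changed genes and 1 of 11596 unchanged genes were called. The simulation does not cover calls at an FDR under 0.05 alone, smaller changes or data in which most genes change. The members and gene lists were chosen with earlier results of these data known. Myc and the highest and lowest member of each role are given with all libraries, and from other lists the highest and lowest called genes. Positions, GC content (longest protein-coding transcript, 31 tested genes without a value) and shared 31-base words are from GENCODE M21 on GRCm38, and promoters from RefSeq. Alternatives covered normalization, low-value filter, pseudocount, variance trend, fold threshold, replicate block, GC bins and leaving out each library. Python 3.11.15, pandas 2.3.3, scipy 1.17.1 and matplotlib 3.10.9 were used.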

Additional observations from a re-analysis of the deposited data

Results flagged for a closer look

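In 4 of 78 sets of 4 libraries (39 genes in 2 groups), the highest or lowest library stood apart from the others by Dixon's test at 95%, where chance gives about 3.9. Nop58 was highest in LPS replicate 1, at 74.16 TPM, with 0.879 of the group's range between it and the next library. Utp14a was lowest in LPS replicate 4, at 29.58 TPM (0.935 of the range). Tsr1 was lowest in LPS + UDCA replicate 2, at 21.97 TPM (0.973 of the range), the library in which Dkc1 was also lowest, at 13.52 TPM. Nop2 was lowest in LPS replicate 3, at 101.22 TPM (0.842 of the range).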

How the results depend on the processing

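Of the recomputed counts and medians, 137 stayed within 1.5 times the reported count or within the spread between replicates and 14 did not. Of the recomputed changes of 13 of the 39 genes (those given with all libraries), 197 kept their direction and side of the FDR threshold, 22 lost a call, 1 gained one and 1 turned. Genes past FDR and fold numbered 2076 lower and 2574 higher at 1.5-fold, and 683 higher with a mean of at least 5 TPM. Of the 39 genes 4 were lower by 2-fold under median-of-ratios scaling, 4 once the all-gene median was removed and 4 at a pseudocount of 0.1, and 9 lower and 2 higher at 1.5-fold. Leaving out a library gave 2 to 4, with 4 without LPS + UDCA replicate 2 and without LPS replicate 3. The median of the 39 was -0.24 under median-of-ratios scaling, -0.24 once the all-gene median (0.082) was removed, and -0.27 under GC bins taken off, where 5 genes were higher without overlap. Dkc1 reversed to 0.08 without LPS + UDCA replicate 2 (range over left-out libraries -0.16 to 0.08) and was called lower by limma with GC bins taken off (-0.43, adjusted p = 0.023). The cause of these moves was not tested, apart from the changed threshold or filter. Deviations of same-numbered libraries correlated at -0.0354 to 0.146 (mean 0.0876, n = 4), and those of differently numbered libraries at -0.145 to 0.162 (mean -0.0292, n = 12). Such few and weak correlations cannot decide whether the replicate numbers pair the libraries. With the replicate block Ubtf (adjusted p = 0.098), Utp20 (0.071) and Ddx21 (0.064) lost their calls by limma and Gar1 (0.048) gained one. Under median-of-ratios scaling Fbl, Gar1, Mybbp1a, Heatr1 and Tsr1 were called lower by limma, with adjusted p from 0.0063 to 0.049. Depth is unknown, so counting error could not be set against the spread.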
